A study of Mus musculus with 26 samples.

Results

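The genes described here are 9 genes known from the inner ear: Whrn, Otoa, Ush1c, Myo7a, Pcdh15, Cdh23, Otof, Strc and Clrn1. They were taken by symbol from a table of 38828 genes, with their counts from a table of 39017 genes, and described over 8 subtypes of mouse dorsal root ganglion neuron. Otoa and Whrn were chosen by their levels in these same libraries, so their patterns are given as a description with no test. The other 7 were named by function and were tested. All 9 passed the filter on low counts, so a gene read in 1 subtype alone could enter through that subtype.

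The libraries came from neurons sorted by fluorescence from adult mice, postnatal day 23 or later, with ganglia of several mice and several sorts pooled for each library. Proprioceptors, the muscle afferents, carried PVIRESCre with the tdTomato reporter Ai14 and came from thoracic ganglia, because at limb levels this cross also labels some cutaneous touch neurons. Aβ SA1-LTMRs, slowly adapting low-threshold mechanoreceptors (LTMRs), carried TrkCCreER and a Ret allele with GFP, and had 3 mg of tamoxifen a day at E12.5. Aβ Field-LTMRs carried the same alleles with 2 mg a day at postnatal days 13 to 14 or 14 to 15. Rapidly adapting Aβ RA-LTMRs carried Npy2r-GFP. Aδ-LTMRs carried TrkBCreER with Ai14 and had 2 mg of tamoxifen a day at embryonic days 12 to 13. These 5 subtypes have A-fibres, the thicker, myelinated axons. C-LTMRs carried ThCreER with Ai14 and had 2 mg a day at postnatal days 13 to 14 or 14 to 15. Peptidergic nociceptors carried CGRP-GFP and nonpeptidergic nociceptors MrgD-EGFP. The 26 libraries comprised 5 of the Aβ RA class and 3 of each remaining one. Genotype and tamoxifen go with subtype and cannot be told apart from it.

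Usher syndrome is inherited deafness with loss of sight. Its proteins meet in the stereocilia of hair cells: cadherin 23 (Cdh23) and protocadherin 15 (Pcdh15) form the tip link that pulls on the mechanotransduction channel, harmonin (Ush1c) and the motor myosin VIIa (Myo7a) anchor it, and the PDZ scaffold whirlin (Whrn) works at the stereocilia base and tip. Clarin-1 (Clrn1) is a small membrane protein with several membrane spans. Otoancorin (Otoa) and stereocilin (Strc) attach the overlying gels of the inner ear, and otoferlin (Otof) is the calcium sensor of the hair cell ribbon synapse. In the mouse, whirlin is also known in proprioceptors.

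Clrn1, Whrn and Otoa had the highest levels of the 9 genes, each with a different order of subtypes. The 250 bases before their RefSeq start sites (build GRCm38.p6) are shown to set the 3 genes side by side, 5′ to 3′ on the gene's strand, with CG dinucleotides in capitals. They are chr3:58885213-58885462, minus strand, for Clrn1, chr4:63495992-63496241, minus strand, for Whrn, and chr7:121083174-121083423, plus strand, for Otoa.

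Clrn1: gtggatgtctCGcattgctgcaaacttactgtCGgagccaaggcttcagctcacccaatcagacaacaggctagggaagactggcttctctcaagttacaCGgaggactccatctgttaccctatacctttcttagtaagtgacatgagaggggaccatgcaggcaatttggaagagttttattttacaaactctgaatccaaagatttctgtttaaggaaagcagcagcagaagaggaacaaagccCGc

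Whrn: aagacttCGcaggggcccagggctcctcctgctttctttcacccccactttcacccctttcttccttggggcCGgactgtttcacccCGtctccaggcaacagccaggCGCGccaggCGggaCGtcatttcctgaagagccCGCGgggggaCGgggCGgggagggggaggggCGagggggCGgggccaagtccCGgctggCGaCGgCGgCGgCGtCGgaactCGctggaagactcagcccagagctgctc

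Otoa: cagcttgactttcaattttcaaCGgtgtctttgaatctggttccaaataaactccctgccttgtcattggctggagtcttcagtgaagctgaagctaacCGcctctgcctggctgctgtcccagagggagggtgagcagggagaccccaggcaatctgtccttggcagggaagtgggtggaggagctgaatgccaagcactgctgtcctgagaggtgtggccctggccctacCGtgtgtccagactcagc

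The Whrn window had 21 CG dinucleotides and 69.6% G or C, and 16.3% of the 32851 promoters in the RefSeq table held as many CG. The Clrn1 window had 4 and the Otoa window 3, below the median of 6 over all promoters. A search on both strands for TGTGGT (RUNX), CCGGAAG (ETS), TAATTA (homeodomain) and TGACGTCA (CRE), which 14%, 6.91%, 4.84% and 1.55% of the promoters hold, found none of the 4 in these 3 windows. The RUNX letters were found once in each window of Myo7a, Pcdh15 and Strc. Of the 9 genes, 8 had an entry, and Otof had none.

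The libraries held 10706522 to 66309214 counts. CPM values below are counts scaled to TMM-adjusted library totals. RPKM is a deposited measure scaled by gene length, and serves wherever 2 genes are compared. It did not follow the counts in every library. Cdh23 had 9 counts and 0.748 RPKM in Aδ-LTMR library 1, but 29 counts and 0.221 RPKM in Aβ SA1-LTMR library 2. The subtype markers followed the labels for Mrgprd, with 1026 CPM in nonpeptidergic nociceptors, Calca, with 3555 CPM in peptidergic nociceptors, Th, with 398 CPM in C-LTMRs, and Pvalb, with 281 CPM in proprioceptors, each the highest mean of the 8 subtypes. Npy2r averaged 20.4 CPM in Aβ RA-LTMRs, against 52.9 CPM in peptidergic nociceptors. Of the other Aβ RA markers, Calb1 and Mafa (0.244 CPM) were highest there, but Ret, Gfra2 and Cadps2 elsewhere. Ntrk2, Colq, Necab2 and Cacna1h were highest in Aδ-LTMRs, but Fam19a1 of that list in Aβ Field-LTMRs. Ntrk3, Nefh, Scn1a and Kcna1 were highest in Aβ SA1- or Aβ Field-LTMRs, but Ret of that list in C-LTMRs. Of the remaining subtype markers, only Gfra2 of the C-LTMR list was highest elsewhere. Summed over 12 satellite glia genes, the level was 2134 to 4364 CPM in proprioceptors, 827 to 1126 in Aβ SA1-LTMRs, 1071 to 1699 in Aβ Field-LTMRs, 1534 to 3483 in Aβ RA-LTMRs, 1457 to 2104 in Aδ-LTMRs, 708 to 888 in C-LTMRs, 773 to 1215 in peptidergic and 348 to 460 in nonpeptidergic nociceptors. None of the 12 was at 0 in any subtype. Aβ RA-LTMR libraries 4 and 5 had the lowest exonic shares of their subtype, 56.1% and 45.7% of mapped reads. Proprioceptor library 1 and Aβ SA1-LTMR library 2 were also low, at 53.8% and 55.5%. Aδ-LTMR libraries 1 and 2 mapped at 61.4% and 74.5%. All Aβ SA1-LTMR libraries and Aβ RA-LTMR libraries 1 to 3 had reads of 25 to 50 bases, and the others began at 15. In bulk libraries, fewer cells with a transcript and less of it per cell cannot be told apart.

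**Figure D1:**
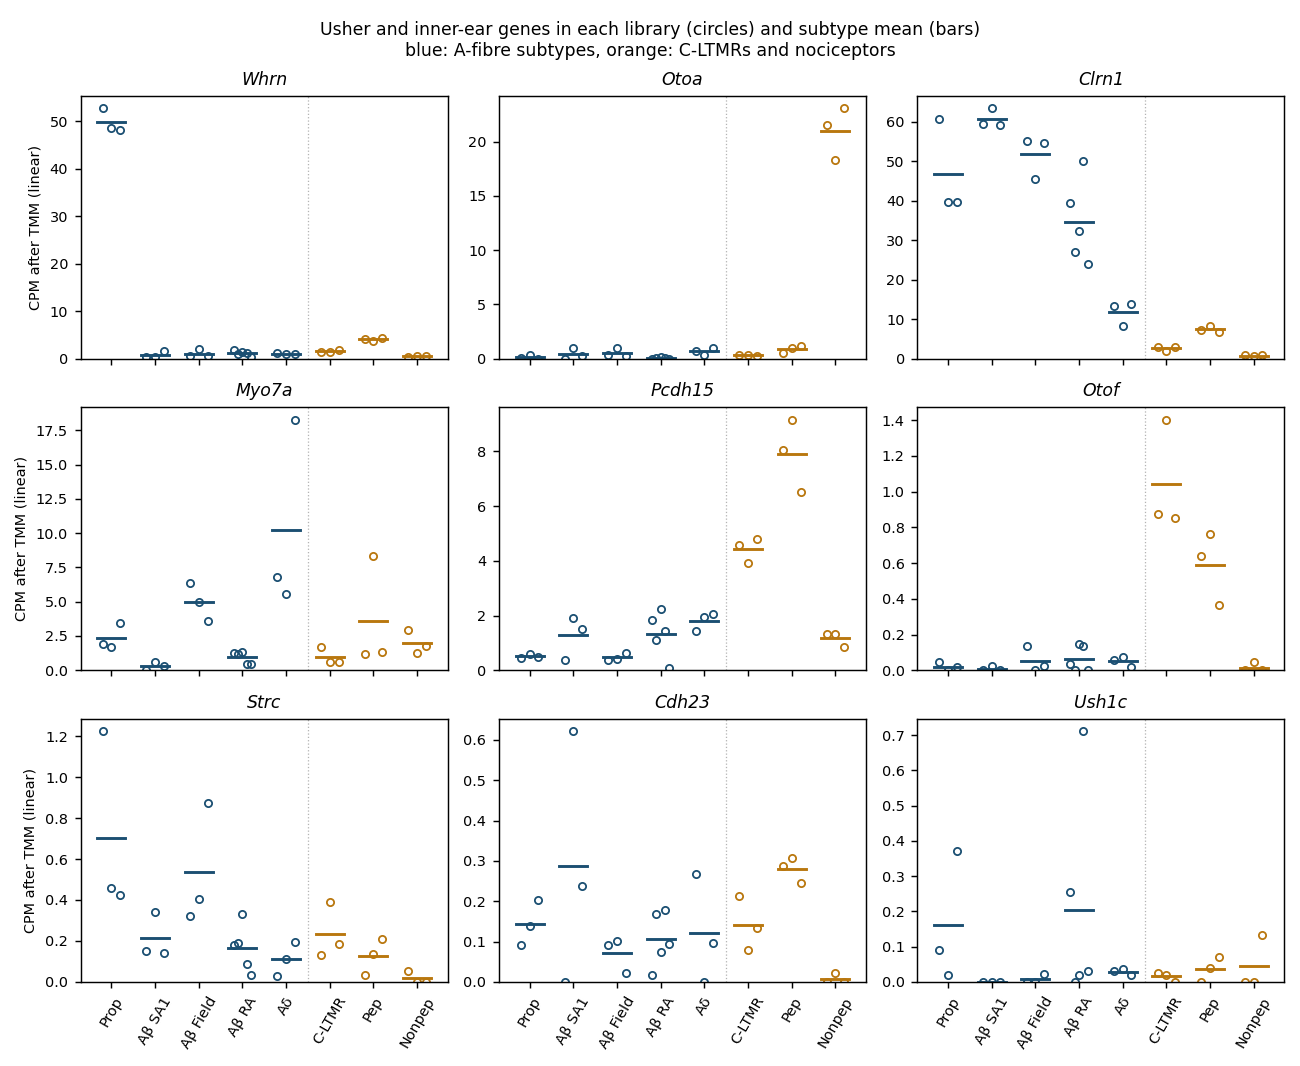
CPM of the 9 genes on linear axes, 1 circle a library and a bar at each subtype's mean, with A-fibre subtypes left of the dotted line and C-LTMRs and nociceptors right of it. Whrn stands out in proprioceptors, Otoa in nonpeptidergic nociceptors, and Clrn1 is high over the Aβ subtypes and proprioceptors.

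Clrn1 (ENSMUSG00000043850, GRCm38 chromosome 3, 58844028 to 58885340, minus strand) had the largest A-fibre difference among the 7 tested of the 9 genes. It had 60.5, 39.7 and 39.7 CPM in the proprioceptor libraries, 59.5, 63.5 and 59.1 in Aβ SA1-LTMRs, and 55.2, 45.4 and 54.5 in Aβ Field-LTMRs. The Aβ RA-LTMR libraries had 39.3, 26.9, 32.4, 49.96 and 24.0 CPM, and the Aδ-LTMR libraries 13.3, 8.32 and 13.9 CPM. It had 3.04, 1.87 and 2.86 CPM in C-LTMRs, 7.14, 8.34 and 6.86 in peptidergic nociceptors, and 0.891, 0.624 and 0.829 in nonpeptidergic nociceptors. All A-fibre libraries except 1 Aδ-LTMR library (8.32 CPM) lay above every other library, of which the highest, at 8.34 CPM, was peptidergic. In log2 CPM, the mean of the 5 A-fibre subtypes was 3.86 ± 0.15 (log2 fold change ± SE, 17 against 9 libraries) above that of C-LTMRs and nociceptors. The adjusted p was 1.13e-16 by edgeR's quasi-likelihood test with Benjamini-Hochberg adjustment over 17411 genes.

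Within the A-fibre subtypes, Clrn1 averaged 60.7 ± 2.41 CPM in Aβ SA1-LTMRs, 51.7 ± 5.45 in Aβ Field-LTMRs, 46.7 ± 12.03 in proprioceptors, 34.5 ± 10.4 in Aβ RA-LTMRs and 11.8 ± 3.06 in Aδ-LTMRs (SD, n = 5 for Aβ RA-LTMRs and 3 for each other). The libraries of neighbours in this order overlapped from Aβ Field-LTMRs to proprioceptors and on to Aβ RA-LTMRs, but not between Aβ SA1- and Aβ Field-LTMRs or between Aβ RA- and Aδ-LTMRs. A proprioceptor library, at 60.5 CPM, also lay within the Aβ SA1-LTMR range. Below them came peptidergic nociceptors at 7.45 ± 0.787, C-LTMRs at 2.59 ± 0.631 and nonpeptidergic nociceptors at 0.781 ± 0.140 CPM (SD, n = 3 each). The mean of the highest subtype was 77.7 times that of the lowest. Against the mean of the other 7 subtypes, Clrn1 was higher in Aβ SA1-LTMRs (log2 fold change 2.52 ± 0.15), Aβ Field-LTMRs (2.26 ± 0.16), proprioceptors (2.08 ± 0.16) and Aβ RA-LTMRs (1.59 ± 0.14). It was lower in nonpeptidergic nociceptors (-4.64 ± 0.27) and C-LTMRs (-2.68 ± 0.23), while the values in peptidergic nociceptors (-0.94 ± 0.20) and Aδ-LTMRs (-0.17 ± 0.19) stayed under the fold of 2 that a call needs. The A-fibre difference of Clrn1 passed after adjustment for the satellite glia score (4.26, adjusted p = 3.01e-09) and with the read-length class (3.96, adjusted p = 6.18e-15).

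Whrn (ENSMUSG00000039137, chromosome 4, 63414910 to 63495991, minus strand) was a gene of proprioceptors in these libraries. It had 52.8, 48.7 and 48.3 CPM in the proprioceptor libraries, against 0.249 to 4.38 CPM in the 23 others. The groups did not overlap. Peptidergic nociceptors came next with 4.12, 3.81 and 4.38 CPM, above all of the rest, so the proprioceptor mean of 49.9 ± 2.51 CPM was 12.2 times their 4.10 ± 0.287 (SD, n = 3 each). C-LTMRs averaged 1.51 ± 0.292 CPM, Aβ RA-LTMRs 1.16 ± 0.473, Aδ-LTMRs 1.08 ± 0.127, Aβ Field-LTMRs 1.00 ± 0.885, Aβ SA1-LTMRs 0.759 ± 0.734 and nonpeptidergic nociceptors 0.460 ± 0.200 CPM. From C-LTMRs down, the libraries of neighbouring subtypes overlapped.

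Otoa (ENSMUSG00000034990, chromosome 7, 121081650 to 121163097, plus strand) had its high level at the other end of the subtypes, in nonpeptidergic nociceptors. Its libraries there had 21.5, 18.3 and 23.1 CPM, against 0 to 1.17 CPM in the 23 others. Peptidergic nociceptors, next in order, had 0.559, 0.956 and 1.17 CPM. The nonpeptidergic mean of 21.0 ± 2.43 CPM was 23.4 times the peptidergic mean of 0.895 ± 0.310 (SD, n = 3 each). Below these, Aδ-LTMRs averaged 0.678 ± 0.291 CPM, Aβ Field-LTMRs 0.526 ± 0.425, Aβ SA1-LTMRs 0.411 ± 0.497, C-LTMRs 0.300 ± 0.0420, proprioceptors 0.150 ± 0.186 and Aβ RA-LTMRs 0.0645 ± 0.0606 CPM, and every neighbouring pair overlapped. Otoa was at 0 counts in 4 libraries: 2 of Aβ RA-LTMRs, 1 of Aβ SA1-LTMRs and 1 of proprioceptors.

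Genes most like Whrn and Otoa were ranked by Pearson's r of log2 CPM over the 26 libraries, among 10757 genes with a subtype mean of at least 5 CPM. The libraries of 1 subtype share their source, so r is a description of the subtype pattern. For Whrn the first 5 were Arhgef2 (r = 0.917), an exchange factor bound to microtubules, Heg1 (0.880), a membrane receptor, Serpina3c (0.878), of the serpin family, Slc38a11 (0.875), of an amino acid transporter family, and Etv1 (0.859), the ETS factor known from the proprioceptor circuit. Arhgef2 averaged 14.9 ± 0.890 CPM in proprioceptors (SD, n = 3), against 0.932 to 3.70 CPM over the other subtype means. Slc38a11 averaged 11.6 ± 2.24 CPM in proprioceptors, against 0 to 0.342 elsewhere.

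For Otoa the first 5 were Agtr1a (r = 0.919), an angiotensin II receptor, Lpar3 (0.904), a lysophosphatidic acid receptor, Prkcq (0.901), a protein kinase C, Plaur (0.899), the urokinase receptor, and Klhl5 (0.886), of the kelch-like family. Agtr1a averaged 86.5 ± 11.1 CPM in nonpeptidergic nociceptors (SD, n = 3), against 0.353 to 5.10 CPM over the other subtype means. Lpar3 averaged 369 ± 33.9 CPM there, against 1.67 to 22.5 elsewhere. Heg1 and Etv1 are on the list of proprioceptor markers used here, and Lpar3 on that of nonpeptidergic nociceptors.

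Pcdh15 (ENSMUSG00000052613, chromosome 10, 73099342 to 74649737, plus strand), the lower cadherin of the tip link, was lower in the A-fibre subtypes. It had 0.0936 to 2.25 CPM over the 17 A-fibre libraries, with a median of 1.09. Peptidergic nociceptors had 8.03, 9.16 and 6.53 CPM, C-LTMRs 4.58, 3.92 and 4.81, and nonpeptidergic nociceptors 1.34, 1.34 and 0.845. The peptidergic and C-LTMR libraries lay above every A-fibre library, and the nonpeptidergic ones lay within the A-fibre range. The log2 fold change of the A-fibre mean over that of the other 3 subtypes was -1.86 ± 0.29 (adjusted p = 4.07e-06, edgeR). Against the other 7 subtypes, Pcdh15 was higher in peptidergic nociceptors (log2 fold change 2.70 ± 0.34) and in C-LTMRs (1.74 ± 0.37), and lower in Aβ Field-LTMRs (-1.91 ± 0.54) and proprioceptors (-1.81 ± 0.52). After adjustment for the satellite glia score the A-fibre value was -1.37 with an adjusted p of 0.322, and the proprioceptor value -1.33 with an adjusted p of 0.418. The Aβ Field-LTMR call was lost without library 1 or 2 of that subtype.

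Otof (ENSMUSG00000062372, chromosome 5, 30367062 to 30461932, minus strand) was read mainly in C-LTMRs and peptidergic nociceptors. It had 33, 72 and 64 counts in C-LTMRs (0.873, 1.40 and 0.851 CPM), and 40, 40 and 21 counts in peptidergic nociceptors (0.639, 0.765 and 0.366 CPM). No A-fibre library had more than 8 counts, and the nonpeptidergic libraries had 2 counts in all. The 6 high libraries, at 0.366 CPM or more, did not overlap the others, of which the highest had 0.147 CPM. Against the other 7 subtypes it was higher in C-LTMRs (4.56 ± 0.59, adjusted p = 9.22e-07, edgeR) and in peptidergic nociceptors (3.62 ± 0.61, adjusted p = 4.68e-05). Otof passed the filter on low counts only through these 2 subtypes, so both calls describe where it was read and support nothing more. The fitted A-fibre difference of -2.72 ± 0.78 (adjusted p = 0.00441) rests on 1 count in Aβ SA1-LTMRs, 2 in proprioceptors and 2 in nonpeptidergic nociceptors. It was -1.86 with an adjusted p of 0.967 without nonpeptidergic library 2, and -1.55 with an adjusted p of 0.631 after adjustment for the satellite glia score.

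Myo7a (ENSMUSG00000030761, chromosome 7, 98051060 to 98119524, minus strand) was higher in Aδ-LTMRs. It had 6.79, 5.57 and 18.3 CPM in the Aδ-LTMR libraries and 6.34, 4.97 and 3.59 in Aβ Field-LTMRs. Peptidergic library 2 had 8.30 CPM, against 1.21 and 1.31 in the other peptidergic libraries, so 1 library there lay within the Aδ-LTMR range. Proprioceptors had 1.90, 1.71 and 3.47 CPM, nonpeptidergic nociceptors 2.90, 1.23 and 1.77, C-LTMRs 1.72, 0.604 and 0.612, Aβ RA-LTMRs 0.468 to 1.31, and Aβ SA1-LTMRs 0, 0.621 and 0.318. Against the other 7 subtypes it was higher in Aδ-LTMRs (log2 fold change 2.70 ± 0.46, adjusted p = 8.37e-05, edgeR) and Aβ Field-LTMRs (1.51 ± 0.51, adjusted p = 0.0397), and lower in Aβ SA1-LTMRs (-3.09 ± 0.75, adjusted p = 0.00274). The A-fibre mean differed from that of the other 3 subtypes by 0.10 ± 0.40 (adjusted p = 0.853), with high and low subtypes on both sides. The Aβ Field-LTMR call was lost when any of 11 single libraries was left out (nonpeptidergic 2 or 3, C-LTMR 2 or 3, Aδ-LTMR 1 or 2, Aβ Field-LTMR 1, 2 or 3, proprioceptor 1 or 2). Without Aδ-LTMR library 3 the Aδ-LTMR difference was 1.97 (adjusted p = 0.01).

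Summed endothelial genes were also highest in Aδ-LTMRs, but Egfl7 of that list was highest in C-LTMRs (8.05 CPM). The 9 endothelial genes summed to 39.0 to 80.1 CPM in Aδ-LTMRs, with 8 of 9 at 1 CPM or more, against 2.10 to 19.6 CPM and at most 4 of 9 in each other subtype. They summed to 4.61 to 17.2 CPM in Aβ Field-LTMRs, where Myo7a was also called higher. In Aβ RA-LTMRs they summed to 4.80 to 19.6 CPM, and Myo7a averaged 0.933 CPM. In Aβ SA1-LTMRs, where Myo7a was lowest, they summed to 7.71 to 9.68 CPM, with Cldn5 and Vwf at 0. They summed to least, 2.10 to 5.43 CPM, in nonpeptidergic nociceptors, where Myo7a averaged 1.97 CPM. After adjustment for the satellite glia score, the Aδ-LTMR difference of Myo7a was 1.80 with an adjusted p of 0.282, and without Aδ-LTMR libraries 1 and 2 it was 3.53 with an adjusted p of 0.000694. By mean log2 CPM, the fibroblast (3.10), pericyte and smooth muscle (2.69) and Schwann cell (3.91) lists were also highest in Aδ-LTMRs. In summed CPM, C-LTMRs were highest for the fibroblast list (134 to 162) and the pericyte and smooth muscle list (686 to 1754). The part of endothelial, glial or these other cells in the Myo7a result was not tested.

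Strc (ENSMUSG00000033498, chromosome 2, 121363728 to 121387168, minus strand) stayed near the floor, with at most 40 counts in any library. It had 27, 23 and 25 counts in proprioceptors (1.22, 0.457 and 0.423 CPM) and 14, 4 and 40 in Aβ Field-LTMRs (0.323, 0.406 and 0.875 CPM). The nonpeptidergic libraries had 3 counts in all. Against the other 7 subtypes it was higher in proprioceptors (log2 fold change 2.23 ± 0.56, adjusted p = 0.00244, edgeR) and Aβ Field-LTMRs (1.84 ± 0.59, adjusted p = 0.0294). The A-fibre mean was 1.68 ± 0.51 above that of the other 3 subtypes (adjusted p = 0.00622, edgeR), with overlapping libraries: 0.0296 to 1.22 CPM in A-fibre libraries, against 0 to 0.390 in the others. That call was lost with the read-length class as a covariate (1.13, adjusted p = 0.148). It was also lost after adjustment for the satellite glia score, with a larger fold (2.80, adjusted p = 0.136). The end of Strc overlaps Ckmt1, the mitochondrial creatine kinase gene on the other strand, and strand use in the counting is not stated. The annotated genes share only the stretch from 121363728 to 121363737. Ckmt1 averaged 819 ± 203 CPM in proprioceptors and 249 ± 60.8 in Aβ Field-LTMRs, against 24.8 ± 7.44 in nonpeptidergic nociceptors (SD, n = 3 each). It averaged 592 CPM in Aβ RA-LTMRs, 543 in Aβ SA1-LTMRs and 283 in Aδ-LTMRs, where Strc averaged 0.164, 0.213 and 0.112 CPM. In C-LTMRs and peptidergic nociceptors Ckmt1 averaged 176 and 77.7 CPM, and Strc 0.236 and 0.125. The part of Ckmt1 in the Strc counts was not tested.

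Cdh23 (ENSMUSG00000012819, chromosome 10, 60302748 to 60696490, minus strand), the upper cadherin of the tip link, had 176 counts over all 26 libraries and at most 29 in one. Its subtype means ran from 0.00770 CPM in nonpeptidergic nociceptors, with 1 count in 3 libraries, to 0.287 in Aβ SA1-LTMRs, where the libraries had 0, 29 and 15 counts. Peptidergic nociceptors were the most even, with 18, 16 and 14 counts. The F test over the 8 subtypes missed the threshold at an adjusted p of 0.0665. It passed without Aβ SA1-LTMR library 1 (adjusted p = 0.00799), without Aδ-LTMR library 1 or 2, and with DESeq2 (adjusted p = 0.0374), and ran from 0.00799 to 0.188 over fits that each left out 1 library. Ush1c (ENSMUSG00000030838, chromosome 7, 46195350 to 46238503, minus strand) had 77 counts in all. Of these, 16 and 14 fell in Aβ RA-LTMR libraries 4 and 1 and 22 in proprioceptor library 3, and the Aβ SA1-LTMR libraries had 0. Ush1c passed the filter on low counts only through these 3 libraries, so its calls below are listed and support nothing, and no fold is given.

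Per gene length, the 9 genes fell into 2 ranges. The highest subtype mean was 23.4 ± 5.80 RPKM for Whrn, 18.8 ± 2.53 for Clrn1, 7.47 ± 0.921 for Otoa, 3.05 ± 1.32 for Myo7a and 1.55 ± 0.151 for Pcdh15 (SD, n = 3 each). It was 0.272 ± 0.414 RPKM for Cdh23, 0.177 ± 0.0472 for Otof, 0.138 ± 0.204 for Ush1c and 0.0678 ± 0.0330 for Strc. The Cdh23 value is that of Aδ-LTMRs, whereas Aβ SA1-LTMRs had its highest mean in CPM. The spread of Cdh23 and Ush1c exceeded their means. Whirlin, clarin-1, otoancorin, myosin VIIa and protocadherin 15 transcripts were thus above 1 RPKM in at least 1 subtype, and those of cadherin 23, otoferlin, harmonin and stereocilin in none.

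In the F test over the 8 subtypes, 6 of the 7 tested genes passed, all but Cdh23, beside 78.3% of all 17411 genes. Ush1c passed at an adjusted p of 0.0420, which ran from 0.0162 to 0.0684 over 24 fits that each left out 1 library and missed the threshold in 15 of them. In the A-fibre comparison, 2 of 7 were higher (Clrn1 and Strc), beside 15.6% of all genes, and 2 of 7 lower (Pcdh15 and Otof), beside 12.9%. The 3 that did not pass were Myo7a, Cdh23 and Ush1c. Otof and Ush1c passed the filter on low counts only through subtypes or libraries where they were high, so their places in these counts support nothing.

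**Figure D2:**
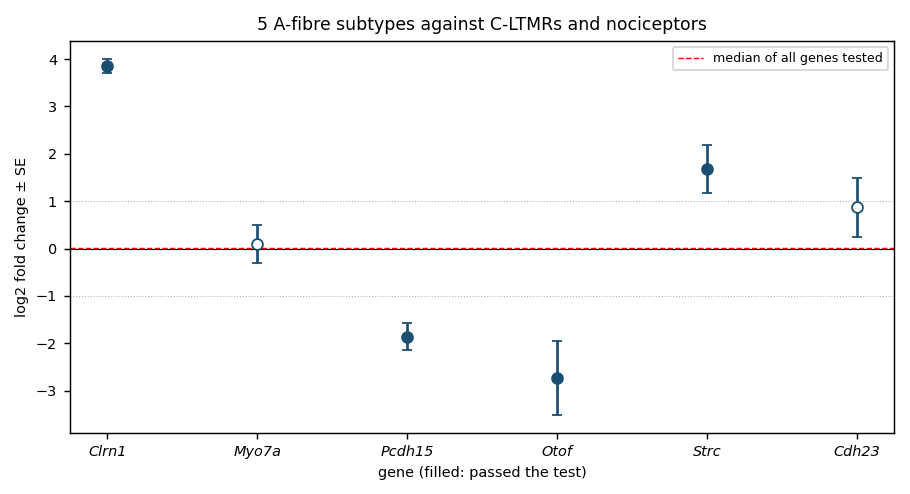
Log2 fold change (y axis) of the tested genes in the 5 A-fibre subtypes over C-LTMRs and nociceptors, with bars of 1 SE, filled where the test passed. Clrn1 is at 3.86 and Pcdh15 at -1.86, beside a median of 0.02 over all genes tested (dashed), and Ush1c is left out because a subtype held 0 counts.

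Each subtype against the mean of the other 7 gave 22 calls among the 56 combinations of gene and subtype. The calls of Otof and Ush1c among them are listed for completeness and, given how both entered the test, support nothing. Proprioceptors had 3 higher (Clrn1, Strc and Ush1c), beside 14.5% of all genes, and 1 lower (Pcdh15), beside 7.66%. The Strc call there was lost without library 1 (adjusted p = 0.0786) and the Ush1c call without library 3 (adjusted p = 0.555), and both were lost after adjustment for the satellite glia score (adjusted p = 0.0923 for Strc and 0.698 for Ush1c). The Ush1c call was also lost with DESeq2 (adjusted p = 0.129). Aβ SA1-LTMRs had 1 higher (Clrn1), beside 8.41%, and 2 lower (Myo7a and Otof), beside 9.32%, and the Otof call there was lost when any of 10 single libraries was left out (nonpeptidergic 2, peptidergic 1 or 2, C-LTMR 2, Aδ-LTMR 2, Aβ SA1-LTMR 1 or 3, Aβ Field-LTMR 1, proprioceptor 1 or 3). Aβ Field-LTMRs had 3 higher (Clrn1, Myo7a and Strc), beside 6.02%, and 1 lower (Pcdh15), beside 2.53%. The Strc call in Aβ Field-LTMRs was lost without library 3 (adjusted p = 0.375). Aβ RA-LTMRs had 2 higher (Clrn1 and Ush1c), beside 10.5%, of which the Ush1c call was lost with the replicate block and after adjustment for the satellite glia score (adjusted p = 0.326 for the latter). Aδ-LTMRs had 1 higher (Myo7a), beside 10.3%. C-LTMRs had 2 higher (Pcdh15 and Otof), beside 10.1%, and 1 lower (Clrn1), beside 8.22%. Peptidergic nociceptors had 2 higher (Pcdh15 and Otof), beside 10.6%. Nonpeptidergic nociceptors had 3 lower (Clrn1, Strc and Cdh23), beside 16.9%, and the Cdh23 call was lost without library 1 or 3. After adjustment for the satellite glia score the Cdh23 and Strc calls were both lost, at adjusted p of 0.929 and 0.144.

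Related genes were followed in 8 lists of 76 genes, 6 of them from the inner ear, 1 of brush border counterparts and 1 of whirlin partners and paranode genes. Of the 76, 75 were found and 59 passed the filter on low counts. Among the 59, 48 passed the F test, beside 78.3% of all genes. In the A-fibre comparison 20 of 59 were higher, beside 15.6% of all genes, and 4 lower, beside 12.9%, with a median log2 fold change of 0.80 over the 59 and 0.02 over all genes. After adjustment for the satellite glia score these counts were 12 higher and 2 lower. The same shares of all genes, 15.6% higher and 12.9% lower, are the background of each list's counts, which cover 1 to 16 tested genes a list. A list gene near the floor could enter through the subtypes where it was read, and its call then describes that alone.

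Among 8 tested Usher partners, 1 was higher and 1 lower. Clrn2, the clarin-1 paralogue, was higher in A-fibre subtypes (log2 fold change 2.10 ± 0.22, adjusted p = 9.74e-09, edgeR), with overlapping libraries. It averaged 7.97 CPM in Aβ SA1-LTMRs, 6.60 in Aβ RA-LTMRs, 4.4 in Aβ Field-LTMRs, 3.3 in Aδ-LTMRs and 1.48 in proprioceptors. The means of C-LTMRs and nociceptors were 0.712 to 1.29 CPM. Pdzd7, a scaffold related to whirlin, was lower (-1.16 ± 0.20, adjusted p = 1.58e-05), but not in every A-fibre subtype. It averaged 2.24 CPM in Aβ SA1-LTMRs, 2.32 in Aβ Field-LTMRs, 1.32 in Aδ-LTMRs, 0.786 in Aβ RA-LTMRs and 0.559 in proprioceptors. The other means were 4.27 CPM in peptidergic nociceptors, 2.39 in nonpeptidergic nociceptors and 2.16 in C-LTMRs.

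Of the hair cell transduction channel, 4 of 5 genes were higher in A-fibre subtypes. Tmie, a subunit of the channel complex, was higher by 2.50 ± 0.23 on the log2 scale (adjusted p = 7.02e-10), with 5.81 CPM in Aβ SA1-LTMRs and 0.943 in proprioceptors, against 0.0710 to 1.73 over the other 3 means. Tmc1, the channel's pore-forming protein, stayed at 1.63 CPM or less in every subtype mean and had 0 counts in nonpeptidergic nociceptors. Tomt, needed to bring TMC proteins to the stereocilia, averaged 0.611 CPM in Aβ RA-LTMRs and at most 0.180 in any other subtype. In C-LTMRs and nociceptors, Tmc1 averaged at most 0.194 CPM and Tmc2 at most 0.0999. Genes this low could enter through the A-fibre subtypes alone, so the calls of Tmc1, Tmc2 and Tomt describe where they were read and support nothing more.

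Of the stereocilia core and its motors, 5 of 16 were higher and 1 lower. Pls1, the actin bundler plastin-1, had the clearest difference (log2 fold change 4.90 ± 0.22, adjusted p = 7.15e-16). It averaged 133 CPM in proprioceptors, 64.9 in Aβ SA1-LTMRs, 36.2 in Aβ Field-LTMRs, 72.5 in Aβ RA-LTMRs and 38.6 in Aδ-LTMRs, against 3.06 in C-LTMRs, 4.47 in peptidergic and 0.623 in nonpeptidergic nociceptors. The A-fibre libraries did not overlap the others. Grxcr1 and Xirp2 passed at subtype means under 0.5 CPM.

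In the gels and otolith list 3 of 8 were higher and 1 lower. Tecta, the tectorial membrane protein alpha-tectorin, was lower (-2.36 ± 0.16, adjusted p = 1.69e-12), with 0.458 to 5.70 CPM over the A-fibre means, against 24.3 in peptidergic nociceptors, 8.03 in nonpeptidergic nociceptors and 3.31 in C-LTMRs. Otol1 and Otogl passed at subtype means under 1 CPM. Among ferlins and ribbon synapse genes, 2 of 11 were higher, Cabp1 (1.70 ± 0.12), a calcium-binding protein, and Ctbp2 (1.15 ± 0.25), whose gene also encodes the ribbon protein RIBEYE. Cabp1 averaged 19.0 CPM in Aδ-LTMRs and 30.2 to 58.4 over the other A-fibre means, with overlapping libraries. It averaged 17.9 CPM in C-LTMRs, 10.2 in peptidergic and 8.61 in nonpeptidergic nociceptors. The peptidergic mean of Ctbp2, 4.97 CPM, lay within the A-fibre means of 1.87 to 6.63. In the same list 1 was lower, Slc17a8 (-2.74 ± 0.34), the vesicular glutamate transporter also on the C-LTMR marker list. It averaged 166.5 CPM in C-LTMRs, while the nonpeptidergic and peptidergic means of 2.64 and 2.20 CPM lay within the A-fibre means of 0.588 to 4.02. Of hair cell regulators 1 of 4 was higher, Pou4f3 (1.06 ± 0.14), and of brush border genes the 1 tested, Cdhr2 (1.87 ± 0.64). Cdhr2 averaged 0.74 CPM in Aβ RA-LTMRs and 0.126 to 0.287 over the other A-fibre means, with proprioceptors lowest. C-LTMRs averaged 0.154 CPM of Cdhr2, and both nociceptor means were lower. Pou4f3 averaged 6.57 to 33.5 CPM over the A-fibre subtypes, against 43.5 in peptidergic nociceptors, its highest mean, 6.69 in C-LTMRs and 2.41 in nonpeptidergic nociceptors.

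Of 6 whirlin partners and paranode genes, 3 were higher: Nfasc (3.36 ± 0.17), Cntn1 (2.59 ± 0.14) and Cntnap1 (2.40 ± 0.13), adhesion proteins found at or beside the node of Ranvier. They differed from Whrn in their pattern: Cntnap1 averaged 177 CPM in proprioceptors, 226 in Aβ SA1-LTMRs, 182 in Aβ Field-LTMRs, 172 in Aβ RA-LTMRs and 142 in Aδ-LTMRs, against 37.7 in C-LTMRs, 58.1 in peptidergic and 17.4 in nonpeptidergic nociceptors. For each of the 3, A-fibre libraries did not overlap the others.

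**Figure D3:**
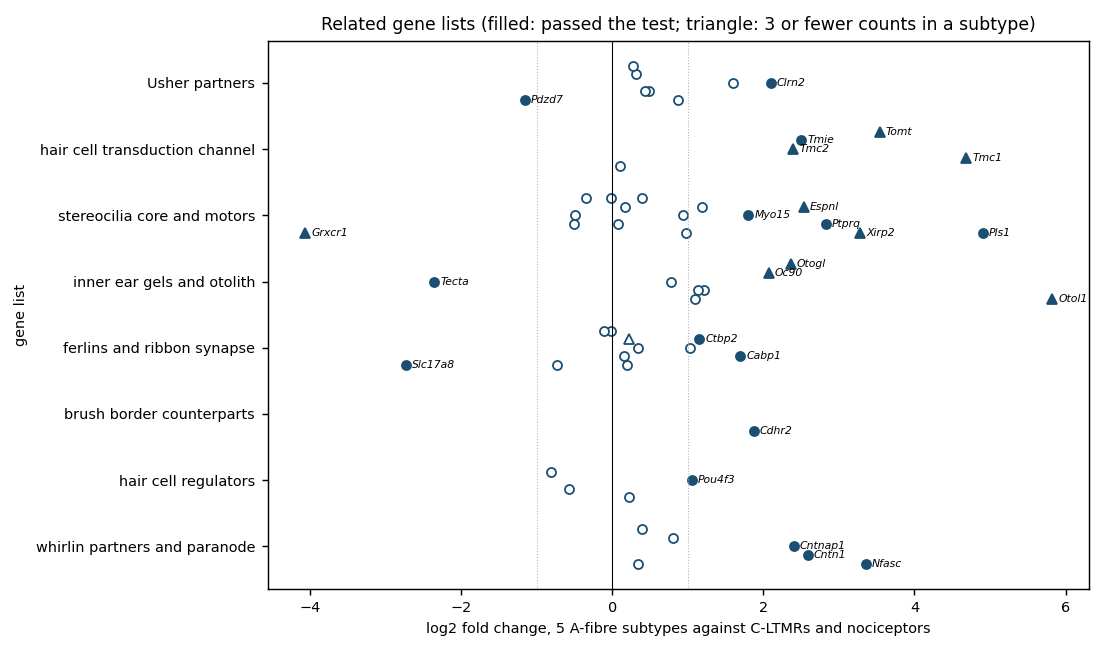
Log2 fold change (x axis) of the 59 tested genes of 8 lists (rows), A-fibre subtypes over C-LTMRs and nociceptors, filled and named where the test passed, with triangles where a subtype held 3 or fewer counts. Pls1 is at 4.90, Nfasc at 3.36 and Tecta at -2.36, and the triangles further out rest on few counts.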

How the data were processed

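Per the labels, amplification used Nugen reagents and library preparation Illumina TruSeq. The submitters' processing notes name FastQC 0.11.3, Cuffdiff, STAR, DESeq2 1.14.1 and HTSeq 0.6.1, with build mm10. The authors deposited raw counts per gene, a regularized log2 table (rlog), an RPKM table, and a library summary with fraction values (exonic, mapping) and other fields such as the range of read lengths.

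Counts were tested in R 4.3.3 with edgeR 4.0.16: filterByExpr left 17411 genes, TMM set library factors, and the quasi-likelihood test gave adjusted p. A call needs an adjusted p under 0.05 and, except in the F test, a log2 fold change of 1 or more in size. The SE equals that change over the square root of F. All 26 libraries entered 1 fit. The common dispersion was 0.107, and variance was at least 9.16 times that of counting. Libraries are pools of mice, so p-values measure the spread between pools. The methods were tested on simulated data.

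The members and lists were chosen with earlier results of these data known. The text names all 9 members, the 5 genes most like Otoa and Whrn (numbered Gm and Rik symbols left out) and up to 3 genes a list with the largest fold, not all printed. Ensembl positions are from GENCODE M21. Alternatives used limma 3.58.1, DESeq2 1.42.0, other filters and covariates. Figures were made with Python 3.11.15, pandas 2.3.3, NumPy 2.4.6 and matplotlib 3.10.9.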

Additional observations from a re-analysis of the deposited data

Results flagged for a closer look

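A second identifier with the symbol Pcdh15 (ENSMUSG00000046980) had 0 counts in every library, yet its RPKM was 0.393 in Aβ SA1-LTMR library 2. It stood out as a signal in a row that no comparison used. The 9 sets of Aβ RA-LTMR libraries, the 1 subtype with 5, held none past Dixon's 95% critical value in CPM. Pcdh15 had 0.0936 CPM in library 5, against 1.09 to 2.25 in the other 4, and Ush1c had 0.711 CPM in library 4, against 0 to 0.254 in the other 4.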

How the results depend on the processing

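Of the 26 called folds, none reversed under any alternative, and the 7 of Clrn1 passed under all of them. With a filter of 1 CPM in 3 libraries, which leaves fewer genes tested, 3 members passed the F test, 1 was higher and 1 lower in the A-fibre comparison, and 13 subtype calls were made. After adjustment for the satellite glia score, 1 member was higher and 0 lower, and 12 list genes were higher and 2 lower. That score differs between subtypes, so the fit cannot separate the score from them. With read-length class, 1 member was higher. With limma on log2(RPKM + 0.1), 1 member was higher, 1 lower and 9 list genes higher. On log2(RPKM + 1), which compresses low levels, 1 member was higher, 0 lower, 6 list genes were higher and 7 subtype calls were made. For these changes the cause was not tested beyond what is named. Leaving out 1 library at a time gave 5 to 6 members in the F test, 2 to 2 higher, 1 to 2 lower, 19 to 24 subtype calls, 45 to 52 list genes in the F test, and 19 to 23 higher and 4 to 5 lower. Replicate numbers are shared between subtypes, but 84 same-numbered pairs had a median correlation of 0.002 (-0.154 to 0.239), so they do not pair the samples. With the replicate block, 5 members passed the F test, 20 subtype calls were made, and 21 list genes were higher. Without Aβ RA-LTMR libraries 4 and 5, chosen after seeing the data, no count moved by over 1.5 times. The difference between proprioceptors and peptidergic nociceptors in Whrn was 3.59 in log2 CPM and 2.77 to 3.56 on other scales. That of Otoa between nonpeptidergic and peptidergic nociceptors was 4.54 and 2.68 to 4.46. Depth limits Cdh23, Strc, Otof and Ush1c, which had 77 to 300 counts in all.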
